A study of Mus musculus with 8 samples.

Results

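Mature absorptive cells of the mouse colon were examined in single-cell RNA counts of sorted epithelium from antibiotic-treated (Abx_14D) and germ-free (GF) mice. Among the 8067 colon cells of these groups that held at least 500 transcripts, each cell was scored by its summed counts of Lypd8, Slc26a3, Ceacam20, Slc9a3 and Guca2a as a share of all its transcripts. The top 8% of cells by this score numbered 645. Of these, 58 were dropped because 8 goblet genes (Muc2, Fcgbp, Clca1, Zg16, Tff3, Spink4, Agr2 and Reg4) made up 0.5% or more of their transcripts. The remaining 587 cells, of 15916 cells with at least 500 transcripts in the whole series, are the mature absorptive cells described here.

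The series addresses how nicotinic acid made by gut microbes bears on the identity of colon regions and on injury. Each of Abx_14D and GF had 4 numbered colon samples and 4 numbered cecal samples, barcoded together and split over 8 sublibraries. No source used here gives the antibiotics, the meaning of 14D, or the strain, genotype, age and sex of the mice. Cells were pooled by condition before sorting, and both groups were sorted alike for EPCAM+ CD45- epithelium, with CD44+ and CD44- cells taken at 1:1. The share of mature cells is therefore partly set by the sort. Control colon held 50 cells of at least 500 transcripts and was too small to compare.

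Absorptive colonocytes are born from stem cells at the crypt base and mature as they move to the surface. At the surface they carry a brush border, take up sodium and chloride in exchange for protons and bicarbonate, absorb water, burn short-chain fatty acids from bacteria, and are shed. Slc26a3 is the apical chloride-bicarbonate exchanger and Slc9a3 a sodium-proton exchanger. Guca2a encodes guanylin, which controls salt and water movement, Lypd8 keeps motile bacteria off the surface, and Ceacam20 is a microvillus membrane protein.

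The samples held 109, 88, 58 and 60 members in Abx_14D and 100, 87, 40 and 45 in GF, in the order of their numbers 1 to 4. Members made up 9.27% ± 2.49 (SD, n = 4) of the colon cells in Abx_14D and 6.37% ± 0.761 in GF, a description with no test because the score chose them. Transcripts per sample summed to between 491876 and 2045713. A member held a median of 14126 transcripts, against 14523 in the other 7422 colon cells, and 0.386% against 0.237% mitochondrial transcripts. In GF 4 the median was only 3783 transcripts, and in Abx_14D 4 a single cell of 458341 transcripts held 29.3% of the sum. The 14 members above 60000 transcripts (8 in Abx_14D, 6 in GF) held 18.2% of all members' transcripts, and the GF against Abx_14D comparison is therefore also given without them. Among all 24609 barcodes, 1602 repeated the well combination of a barcode in another sublibrary, and 4 members shared one with another member.

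The last member had a score of 0.09602% and the first cell outside 0.09597%, so the limit falls on a continuum. Within 20% of the limit lay 90 members above and 176 other cells below. The median score was 0.204% in members and 0.0137% in the other cells, and a member carried a median of 25 counts of the 5 genes, with 5 members admitted on a single count.

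The genes used for the choice varied between the groups among the chosen cells. Expression is given as CPM, the gene's transcripts per 1000000 transcripts of a sample's members. Slc26a3 stood at 449, 535, 628 and 424 CPM in the Abx_14D samples and at 1116, 1076, 1228 and 1793 CPM in the GF samples. The groups did not overlap. Slc9a3 stood at 173 ± 69.2 CPM (SD, n = 4) in Abx_14D and 330 ± 132 in GF, and Lypd8 at 2279 ± 469 and 1782 ± 132. Guca2a stood at 383 ± 101 and 402 ± 169 CPM and Ceacam20 at 175 ± 88.9 and 222 ± 36.6. Slc9a3, Lypd8, Guca2a and Ceacam20 each overlapped between groups. These genes chose the cells, so their levels carry no test. Among the chosen cells, GF thus carried more Slc26a3 in every sample and, on average, less Lypd8.

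Other genes of differentiated colonocytes, which the rule did not use, were checked in the same cells. Krt20, a keratin of surface epithelium, averaged 509 ± 86.5 CPM (SD, n = 8) in members and 15.0 ± 4.09 in the other colon cells. Car1, a cytosolic carbonic anhydrase, averaged 2147 ± 504 against 103 ± 17.6 CPM, and Emp1, a membrane protein of differentiated epithelium, 509 ± 78.5 against 25.7 ± 6.66. Lgr5, the receptor that marks crypt base stem cells, stood at 13.6 ± 10.1 CPM in members and 312 ± 76.5 in the others. Summed markers of enteroendocrine cells reached at most 4.55 CPM, of immune cells 12.2 and of stroma 8.62 in any sample's members, and Cd3e, Cd79a and Lyz2 were at 0. Stem markers reached 1347 CPM, goblet markers 630, cycling markers 378 and tuft markers 176 in a sample's members. In cells ranked between 4% and 8%, Lypd8 made up most of the score. It averaged 1004 CPM there, against 164 for Slc26a3, 113 for Guca2a, 20.4 for Ceacam20 and 19.5 for Slc9a3. The label thus matched Krt20, Car1, Emp1 and Lgr5 on average, less so toward the limit, as the plot along the score shows.

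**Figure D1:**
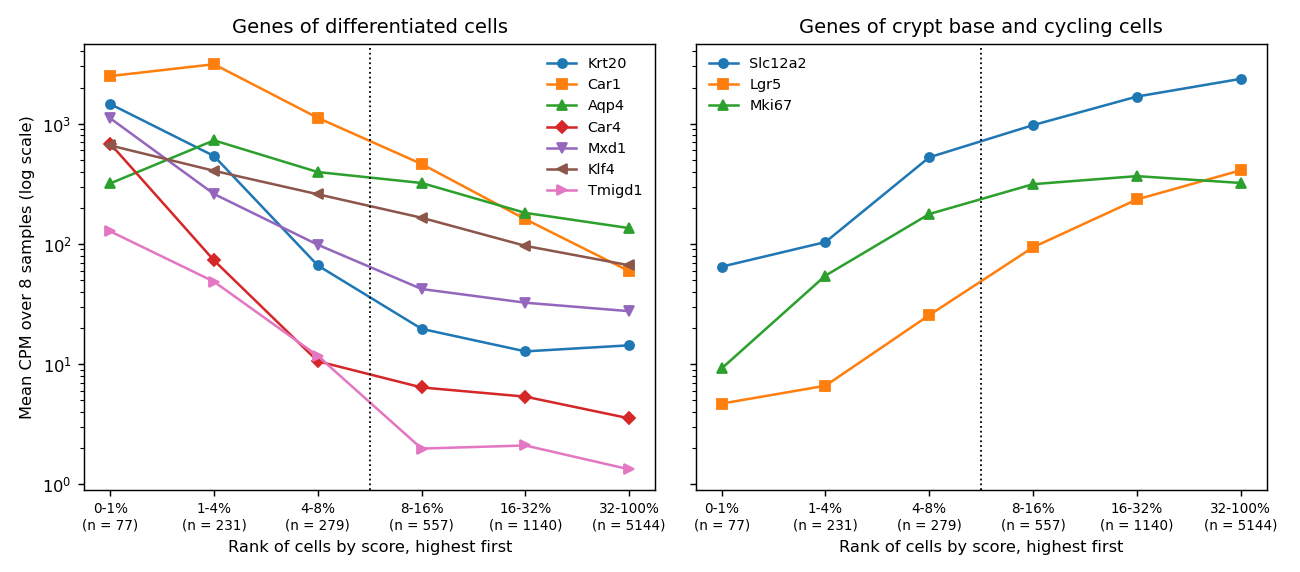
Mean CPM over the 8 colon samples (log axis) of genes of differentiated cells (left) and of crypt base and cycling cells (right), for cells ranked by score and grouped by rank, with the number of cells under each group and a dotted line at the limit for members. Krt20 was at 1460 CPM in the top 1% of cells, 66.2 just inside the limit and 19.6 just outside, while Slc12a2 went from 64.7 to 526 and 974.

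Members were not uniform. In the 77 cells of the top 1% by score, Krt20 averaged 1460 CPM, Car4, a membrane carbonic anhydrase of the brush border, 683, Mxd1, a repressor that opposes Myc in differentiating cells, 1111, and Saa1, a serum amyloid, 653. In the 279 cells ranked between 4% and 8%, the same genes averaged 66.2, 10.6, 98.4 and 1.73 CPM. Car1 and the water channel Aqp4 did not follow this order. Car1 averaged 2496 CPM in the top 1% and 3130 in the 231 cells between 1% and 4%, and Aqp4 averaged 319 and 728. Cells ranked between 4% and 8% still carried Mki67, a proliferation marker, at 177 CPM against 9.20 in the top 1%, and Slc12a2, the basolateral sodium-potassium-chloride cotransporter, at 526 against 64.7. Over the 432 members with at least 5000 transcripts, Krt20 had a median of 56.6 CPM and a 90th percentile of 1429. In 45.1% of them no Krt20 transcript was counted. Ranks and genes come from the same cells, so these gradients are descriptions.

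Genes with the highest ratio of members to other colon cells were ranked among those of at least 100 CPM in members. Saa1 led with 127 ± 46.4 CPM (SD, n = 8) against 0.932 ± 0.811, a ratio of 137. Tgm3, a transglutaminase that crosslinks proteins, followed with 297 ± 128 against 2.28 ± 1.43 CPM, a ratio of 130. Among the first 25 genes were Slc10a2, the apical bile acid transporter, with a ratio of 43.6, Atp12a, the colonic proton-potassium pump, with 24.1, Slc13a2, a dicarboxylate carrier, with 23.3, Slc40a1, the iron exporter, with 14.7, and Slc37a2, a sugar phosphate exchanger, with 12.4. Enzymes of small molecules and membranes also ranked there, among them the peptidase Dpep1 (20.2), the cytochromes Cyp4f14 (16.9) and Cyp2c55 (16.5), and Fa2h (11.3), which hydroxylates fatty acids. At the other end, Lgr5 had a ratio of 0.0437, Ptprn2 0.0345, the channel gene Kcnma1 0.053 and the receptor gene Kit 0.0639.

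Members of GF were then compared with members of Abx_14D, on counts summed per numbered sample with edgeR's quasi-likelihood test and Benjamini-Hochberg adjustment over all 9418 genes tested. In GF, 101 genes (1.07%) were higher and 140 (1.49%) lower at an adjusted p under 0.05, together 2.56%. Nothing in the labels ties a number to its own animal, and the p-values rest on the spread between numbered samples, which could be technical. Leaving out GF 4, the sample with the shallowest cells, gave 452 genes, and leaving out Abx_14D 1, GF 2 or GF 3 gave 124, 158 and 157. Fewer cells of a kind within the sum and less RNA per cell cannot be told apart in it.

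Interferon-induced genes were lower in GF members almost throughout. Type I, II and III interferons signal to transcription factors, among them Stat2 and Irf9, to induce genes that detect and degrade viral RNA, block viral entry and raise antigen presentation. Of 46 genes of this list tested, 41 fell in GF and none rose, against 1.49% of all genes that fell. Their median log2 difference was -2.22, and that of all genes tested was -0.05. In 40 of the 46, every Abx_14D sample lay above every GF sample, which held for 4.93% of all genes tested. Summed over the 46 genes, members held 5458, 4500, 7708 and 3131 CPM in Abx_14D and 1371, 1536, 1286 and 1065 CPM in GF. The lowest Abx_14D sample thus lay above the highest GF sample.

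Regulators of the pathway fell with its targets. Irf7, the factor that amplifies the response, stood at 121, 131, 198 and 120 CPM in Abx_14D and at 17.1, 28.8, 18.2 and 26.4 in GF. Its log2 difference was -2.65 ± 0.23 (SE; edgeR adjusted p = 1.1e-05). For Stat2 the log2 difference was -1.67 ± 0.24 and for Irf9 -1.79 ± 0.26, each with an edgeR adjusted p of 0.0011. None of these genes overlapped between the groups.

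Among the effectors, the 2-5A synthetases, which make the activator of an RNA-cleaving enzyme, showed large differences. Oas2 stood at 73.2, 92.4, 112 and 24.9 CPM in Abx_14D and at 0.489, 1.34, 0 and 0 in GF. GF members held 3 counts of it in all, so the ratio of summed CPM, 110 with a 95% counting interval of 37.2 to 533, is imprecise. Oasl2 stood at 240, 268, 371 and 177 CPM against 21.5, 48.9, 16.7 and 10.2 (log2 difference -3.26 ± 0.31, edgeR adjusted p = 3e-05). Oas1a stood at 92.7, 110, 123 and 85.7 CPM against 20.5, 28.8, 19.7 and 14.2 (log2 difference -2.21 ± 0.21, edgeR adjusted p = 3e-05). Neither gene overlapped between groups. Isg15, a ubiquitin-like modifier, stood at 37.9, 28.6, 82.5 and 15.4 CPM in Abx_14D and at 2.44, 3.35, 1.52 and 0 in GF (log2 difference -4.03 ± 0.58, edgeR adjusted p = 0.0011). Its deconjugating enzyme Usp18 differed by -3.79 ± 0.62 and Zbp1, a sensor of Z-form nucleic acid, by -3.76 ± 0.52 on the log2 scale. Bst2, which tethers virions to the membrane, differed by -4.50 ± 0.50, Gbp3, a guanylate-binding protein, by -3.93 ± 0.61, and Ifit1, which binds foreign RNA ends, by -3.27 ± 0.52. The giant ubiquitin ligase Rnf213 stood at 912 ± 323 CPM (SD, n = 4) in Abx_14D and 213 ± 71.4 in GF. Near-identical copies (Oas1a and Oas1g, Apol9a and Apol9b) may have been split by the counting.

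Outside the list, Slfn5, a Schlafen family gene, stood at 67.4, 35.9, 134 and 21.1 CPM in Abx_14D with 0 counts in GF. Against a floor of 3 counts over the GF group, it was at least 88.5-fold lower in GF. Gm4951, an interferon-inducible GTPase gene, also had 0 counts in GF and was at least 64.1-fold lower there. Iigp1 and Ifi44, members of the list, differed by -5.60 ± 1.06 and -5.52 ± 0.58 on the log2 scale. Ifitm3, which blocks fusion of enveloped viruses, held 137 counts in Abx_14D and 3 in GF, a ratio of 38.0 with a 95% counting interval of 12.7 to 186. Phf11b differed by -3.94 ± 0.56 on the log2 scale.

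**Figure D2:**
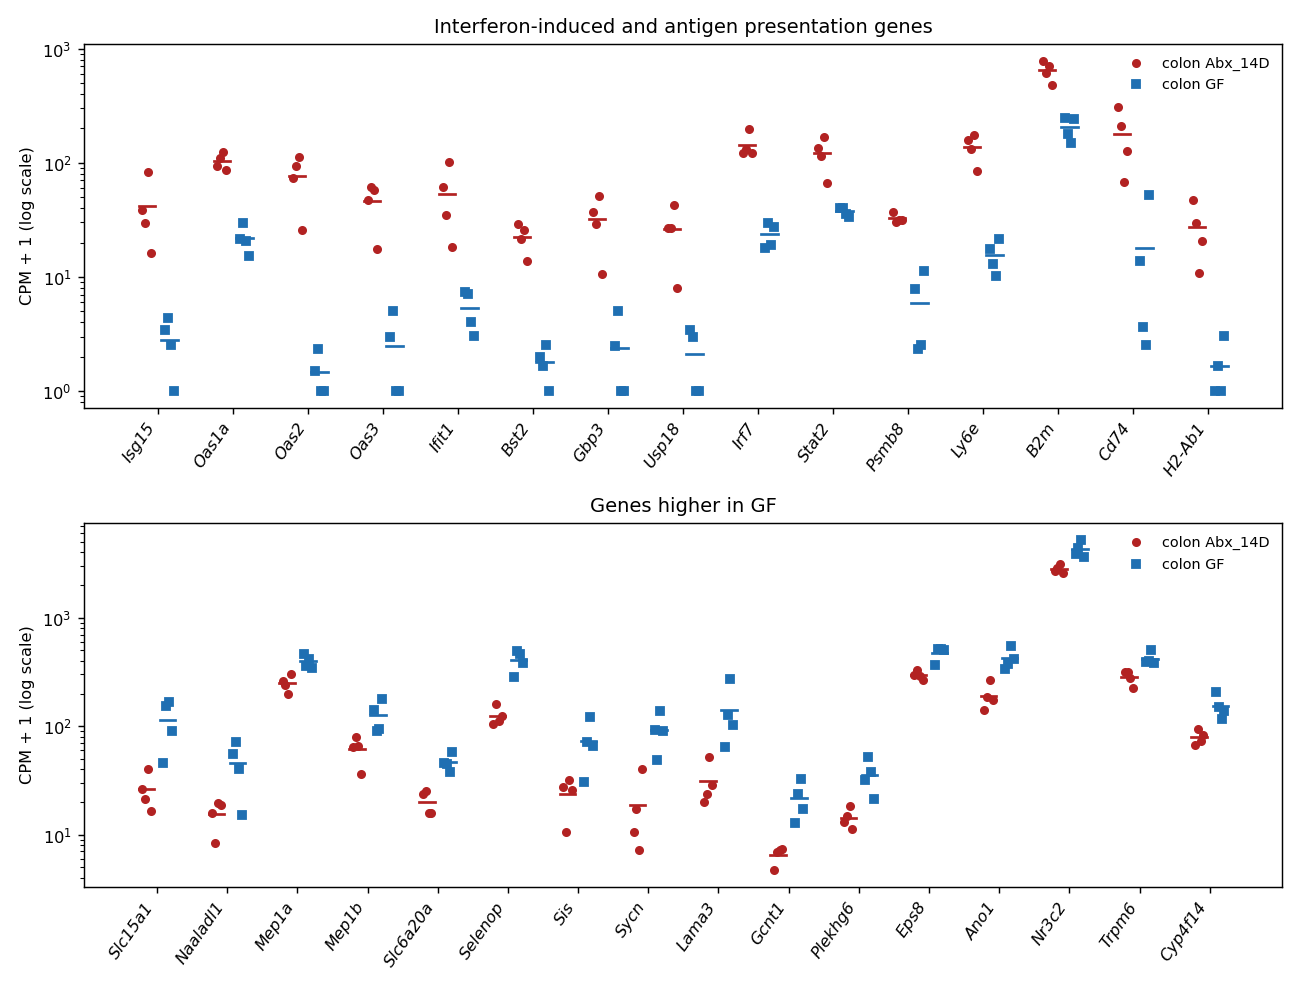
CPM + 1 (log axis) of each gene in members of the 4 Abx_14D samples (red circles) and the 4 GF samples (blue squares), with a short line at each group's mean, for interferon-induced and antigen presentation genes (top) and genes higher in GF (bottom). B2m ranged from 482 to 786 CPM in Abx_14D and from 147 to 247 in GF, and Selenop from 104 to 160 and from 281 to 497.

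Antigen presentation genes fell as well. MHC class II presents peptides to CD4+ T cells and is switched on in epithelium by the coactivator Ciita. Of 5 genes of this list tested, 4 fell (Cd74, H2-Ab1, H2-Eb1 and Ciita). Cd74, the invariant chain, stood at 305, 208, 66.5 and 125 CPM in Abx_14D and at 12.7, 2.68, 1.52 and 50.8 in GF (log2 difference -3.81 ± 0.59, edgeR adjusted p = 0.0017). The groups did not overlap, although GF 4 lay well above the other GF samples. H2-Ab1 held 166 counts in Abx_14D and 2 in GF, a ratio of 69.1 with a 95% counting interval of 18.8 to 575. For Ciita the ratio was 24.7 (8.18 to 122) and for H2-Eb1 26.1 (8.65 to 129), each on 3 counts in GF. Class I genes changed less. B2m, the class I light chain, stood at 786, 612, 703 and 482 CPM against 247, 179, 147 and 240, without overlap (log2 difference -1.66 ± 0.18, edgeR adjusted p = 0.00011). For H2-K1 the log2 difference was -0.90 ± 0.14 and for H2-D1 -0.94 ± 0.14. Nlrc5, the class I coactivator, fell by 3.03 ± 0.45 and the immunoproteasome subunits Psmb8 and Psmb9 fell by 2.75 ± 0.39 and 2.11 ± 0.31 on the log2 scale. The membrane proteins Ly6e (137 ± 38.8 CPM against 14.5 ± 4.95, log2 difference -3.23 ± 0.27) and Ly6a (90.5 ± 56.7 against 12.1 ± 5.44, -2.85 ± 0.40) fell too. B2m, H2-K1, H2-D1, Ly6a and Ly6e were the 5 genes that fell among 34 tested for epithelial immune signalling, where Il22ra1, a subunit of the interleukin-22 receptor, rose (12.7 ± 2.28 to 27.1 ± 6.26 CPM).

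Interferon-stimulated response elements are bound by a complex with Stat2 and Irf9 and by other interferon regulatory factors. A simple form, GAAA followed by any 2 bases and GAAA again, was searched on both strands from 250 bases before to 50 bases after each RefSeq gene start (build GRCm38.p6). A gene counted once if any of its starts had a match. Of the 41 list genes that fell, 28 had a window and 16 of these (57.1%) held the motif, against 1079 of 27025 genes (3.99%) with a window and 281 of 7505 genes (3.74%) tested. The motif was in 23 of 77 other genes that fell (29.9%) and in 1 of 74 genes that rose (1.35%). These shares are descriptions of letters in the windows and were not tested. Stretches upstream of the start of 5 of the genes described above are printed 5′ to 3′ on the gene's strand, with capitals marking this motif or its reverse complement, TTTC followed by any 2 bases and TTTC again.
Isg15 (chr4:156200855-156200916, minus strand): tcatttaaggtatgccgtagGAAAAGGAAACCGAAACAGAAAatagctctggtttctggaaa
Ifit1 (chr19:34640765-34640833, plus strand): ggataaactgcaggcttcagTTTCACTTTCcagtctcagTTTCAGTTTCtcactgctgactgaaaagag
Gbp3 (chr3:142559979-142560034, plus strand): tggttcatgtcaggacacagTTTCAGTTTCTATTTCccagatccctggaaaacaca
Oas1a (chr5:120907526-120907565, minus strand): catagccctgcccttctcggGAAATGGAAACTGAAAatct
Bst2 (chr8:71537567-71537622, minus strand): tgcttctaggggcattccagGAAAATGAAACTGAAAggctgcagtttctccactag
Isg15 (3 matches), Oas1a and Bst2 (2 matches each) carry overlapping matches in 1 orientation. Gbp3 carries 2 overlapping matches in the other.

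The interferon difference was present at all ranks of the score and larger in amount toward higher scores. In Abx_14D the 46 genes summed to 8711 ± 3560 CPM (SD, n = 4) in the top 1% of cells, 5698 ± 2091 between 1% and 4%, 3038 ± 858 between 4% and 8%, and 1389 ± 263 in the lowest 68% of cells. In GF they summed to 2063 ± 1063, 1360 ± 349, 887 ± 52.4 and 629 ± 26.8 CPM over the same ranks. The top 1% held only 31 GF cells, with as few as 3 in a sample. MHC class II had another shape. In Abx_14D its 5 genes summed to 414 ± 240 CPM in the top 1% and 270 ± 115 in the lowest 68%, and in GF to 19.7 ± 15.2 and 23.6 ± 16.3. Between 1% and 4% and between 4% and 8%, the Abx_14D sums were 230 ± 153 and 215 ± 119 CPM. The GF sums there were 13.8 ± 9.05 and 38.5 ± 59.3. Depth was equalised by thinning each member to 3000 transcripts, which left 91, 81, 47 and 53 members in Abx_14D and 84, 69, 34 and 27 in GF. At that depth a member held on average 15.6, 13.8, 17.8 and 9.45 interferon-list transcripts in the Abx_14D samples and 4.23, 4.01, 3.85 and 3.26 in the GF samples.

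**Figure D3:**
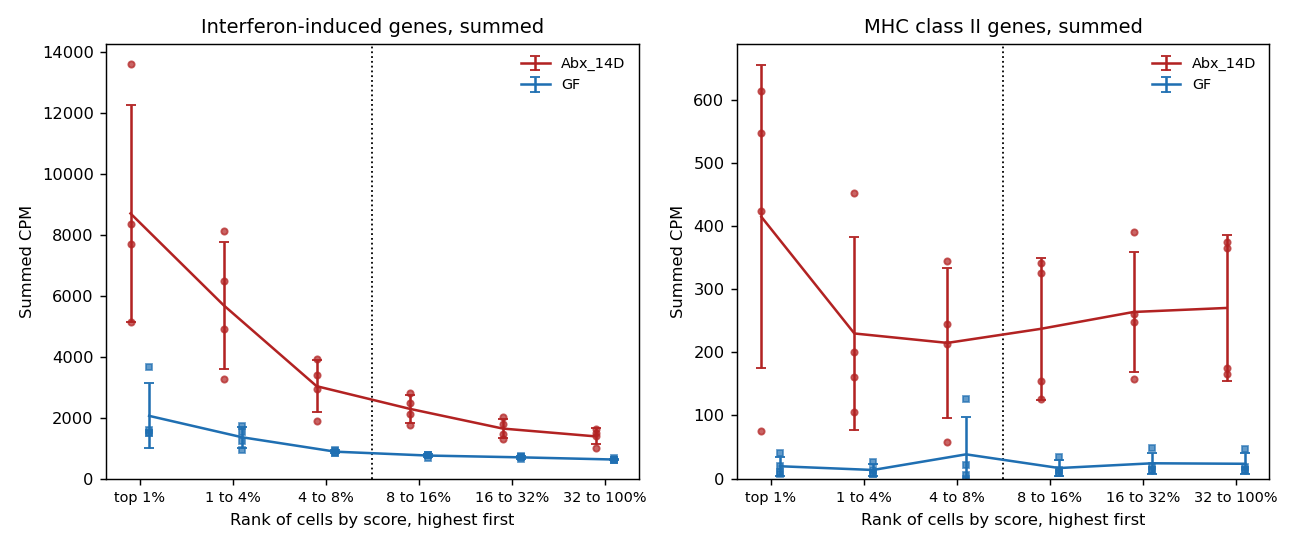
Summed CPM of the 46 interferon-induced genes (left) and the 5 MHC class II genes (right) in cells grouped by rank of the score, for Abx_14D (red) and GF (blue), with 1 point per sample, lines through the means and bars of 1 SD (n = 4), and a dotted line at the limit for members. Interferon genes in Abx_14D went from 1389 CPM in the lowest ranks to 8711 in the top 1%. MHC class II was at 270 in the lowest ranks, 215 between 4% and 8%, and 414 in the top 1%.

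Whether members differed from the other colon cells in this response was tested as an interaction, with the sample as a block. Over 12378 genes tested, 161 (1.3%) passed at an edgeR adjusted p under 0.05. Of 51 interferon genes tested here, 5 fell more steeply in members (Bst2, Herc6, Rigi, Rnf213 and Ifi27l2b) and the list's median was -0.51 on the log2 scale, against -0.11 for all genes. Ly6e fell from 137 ± 38.8 to 14.5 ± 4.95 CPM in members and from 93.3 ± 17.5 to 43.9 ± 4.92 in the others (interaction -2.07 ± 0.23, edgeR adjusted p = 0.00055). Rnf213 fell from 912 ± 323 to 213 ± 71.4 CPM in members, with 346 ± 66.9 and 150 ± 14.5 in the others (interaction -0.83 ± 0.19, edgeR adjusted p = 0.045). Cd74 did not pass (interaction -0.02 ± 0.59), with 176 ± 104 and 16.9 ± 23.1 CPM in members and 175 ± 74.8 and 10.97 ± 9.55 in the others. The 161 genes split into 68 higher and 93 lower, and into 85 and 52 with TMM scaling. Without the sample block 23 genes passed, and 57 without GF 3. Without cells above 60000 transcripts, 36 genes passed and 1 of 51 interferon genes, and at a score of at most 0.3% none of 49 interferon genes did.

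Markers of crypt cells were lower on average in GF members, with overlap between the groups. The 10 cycling markers summed to 336, 378, 154 and 250 CPM in Abx_14D and 100, 72.3, 80.4 and 260 in GF, and the 9 stem markers to 1347, 719, 543 and 639 against 499, 611, 373 and 401. None of the 5 cycling and 7 stem markers tested passed an edgeR adjusted p of 0.05, and 3 of each had an unadjusted p under 0.05. Of all 9418 genes tested, 1466 had such a p. Without cells above 60000 transcripts Mki67 did pass (log2 difference -1.73, edgeR adjusted p = 0.018). Cycling markers summed to 537 ± 212 against 174 ± 91.4 CPM in cells ranked between 4% and 8%. Between 1% and 4% they were at 104 to 158 CPM in Abx_14D and at 52.0, 72.6, 62.4 and 415 in GF, and in the top 1% the sums were 75.8 ± 22.9 and 37.4 ± 26.8. Goblet markers summed to 215 ± 33.7 CPM in Abx_14D and 320 ± 216 in GF. Tuft markers reached 176 CPM in Abx_14D 4 and 81.3 in GF 4. In Abx_14D 4, 102 of 275 tuft counts came from the deepest cell, which held 29.3% of that sample's summed transcripts. Without cells above 60000 transcripts the tuft sums were 193 CPM in Abx_14D 4 and 94.0 in GF 4. Within the top 1% of cells, the summed interferon genes of Abx_14D were at 5141 CPM or more and those of GF at 3655 or less. Ranks and genes come from the same cells, so these values are descriptions. These values rest on 46 cells in Abx_14D (10 to 13 per sample) and 31 in GF (3 to 12 per sample). The part of crypt cell markers in the genes that rose or fell was not tested.

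Several surface enzymes and transporters were among the genes higher in GF. Of 18 brush border peptidases and amino acid transporters tested, 5 rose and none fell, against 1.07% of all genes that rose. The list's median was 0.26 on the log2 scale. Slc15a1, the proton-coupled peptide transporter Pept1, stood at 25.3, 20.5, 39.4 and 15.4 CPM in Abx_14D and at 45.0, 151, 167 and 89.5 in GF, without overlap (log2 difference 2.21 ± 0.37, edgeR adjusted p = 0.0028). Mep1a, a meprin metalloprotease of the brush border, stood at 261, 237, 197 and 299 CPM against 461, 357, 416 and 344, also without overlap (0.67 ± 0.15, edgeR adjusted p = 0.022). Its partner Mep1b differed by 1.04 ± 0.25, the peptidase Naaladl1 by 1.73 ± 0.36 and the amino acid transporter Slc6a20a by 1.21 ± 0.23. Without cells above 60000 transcripts 3 of 17 rose and Slc15a1 did not (1.11, edgeR adjusted p = 0.1), and at a score of at most 0.3% none of 14 did.

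Selenop, which encodes a secreted carrier of selenium, rose most firmly. It stood at 104, 160, 110 and 123 CPM in Abx_14D and at 281, 497, 461 and 380 in GF (log2 difference 1.70 ± 0.19, edgeR adjusted p = 0.00011). Every GF sample lay above every Abx_14D sample, and the gene passed in 21 of 22 alternatives, with 1.25 without cells above 60000 transcripts and 1.31 at a score of at most 0.3%. In the other colon cells it stood at 56.1 ± 6.48 CPM in Abx_14D and 52.6 ± 8.92 in GF (interaction 1.76 ± 0.19, edgeR adjusted p = 0.00055). Lama3, a laminin chain, rose from 29.9 ± 14.2 to 140 ± 89.5 CPM and Tgm3 from 184 ± 30.8 to 409 ± 59.5. Without the deepest cells Lama3 passed and Tgm3 did not (0.49, edgeR adjusted p = 0.12). Sycn, a secretory granule protein, rose from 17.7 ± 14.8 to 91.4 ± 37.0 CPM, and the disaccharidase Sis from 22.9 ± 9.25 to 71.4 ± 37.1. The other genes with the largest rises were the orphan nuclear receptor Rora, Gcnt1, which branches O-glycans, the cytochrome Cyp2c68, Egln3, an oxygen-sensing hydroxylase, the exchanger Slc24a3, the channel Cacna1e, the kinase Prkch, Bmper and Plekhg6. Their log2 differences lay between 1.38 (Prkch) and 2.21 (Rora). Without the deepest cells Rora, Bmper, Slc24a3, Cyp2c68 and Sis passed, and Sycn (1.77, edgeR adjusted p = 0.12), Gcnt1 (1.30, 0.083), Egln3 (1.06, 0.16), Cacna1e (1.04, 0.31), Prkch (0.84, 0.36) and Plekhg6 (1.33, 0.063) did not.

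Some ion transport genes rose. Of 28 sodium and chloride transport genes tested, 4 rose, against 1.07% of all genes, and 12 had an unadjusted p under 0.05. Such a p was found for 1466 of all 9418 genes tested. Nr3c2, the mineralocorticoid receptor through which aldosterone acts, rose from 2825 ± 250 to 4269 ± 710 CPM, and the chloride channel Ano1 from 190 ± 53.4 to 420 ± 94.3. The sulfate transporter Slc26a2 rose from 1053 ± 46.2 to 1512 ± 178 CPM and the proton exchanger Slc9a2 from 326 ± 22.3 to 454 ± 23.7. Of 7 calcium and magnesium genes tested, the magnesium channel Trpm6 (282 ± 41.6 to 418 ± 57.0 CPM) and the magnesium transporter Cnnm4 (276 ± 30.8 to 423 ± 69.4) rose, and 3 had an unadjusted p under 0.05. Of 23 brush border genes tested, 2 rose (Eps8, which caps actin in microvilli, and Plekhg6), and 7 had an unadjusted p under 0.05. St3gal4, a sialyltransferase, Apob, the scaffold of lipoproteins, Cyp4f14, Mxd1, Ppard and Saa1 rose by between 0.49 and 0.99 on the log2 scale. Among these genes, Slc9a2, Apob and Cyp4f14 also passed without the 14 deepest cells. The others did not pass there, although several log2 differences stayed close, at 0.54 for Nr3c2, 0.43 for Slc26a2, 0.56 for Cnnm4, 1.33 for Plekhg6 and 0.47 for Ppard. Others were smaller, at 0.61 for Ano1, 0.35 for Mxd1 and 0.27 for Saa1. In that setting 34 genes rose in all, of which 28 were among the 101. At a score of at most 0.3%, 18 of the 101 were shared.

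Other genes that fell were Acsm3, which activates medium-chain fatty acids (136 ± 26.2 to 81.2 ± 17.3 CPM), Sult1a1, a sulfotransferase (334 ± 66.5 to 184 ± 58.6), the manganese exporter Slc30a10 (25.1 ± 2.00 to 10.01 ± 5.13), the connexin Gjb1 (37.6 ± 4.57 to 17.9 ± 2.04) and Mlkl, the pore-forming protein of necroptosis (61.1 ± 17.7 to 22.2 ± 6.80). Acsm3, Sult1a1 and Slc30a10 passed in 9, 10 and 11 of 22 alternatives, and without the deepest cells Sult1a1 (-0.71, edgeR adjusted p = 0.075) and Slc30a10 (-1.36, edgeR adjusted p = 0.052) did not pass. No gene passed among 30 of oxidative phosphorylation (median -0.36 on the log2 scale), 18 of nicotinic acid and NAD, 23 of cholesterol synthesis, 13 Hox genes, 7 carbonic anhydrases, 4 aquaporins, 4 of guanylin signalling, 8 of bile acid transport and 5 gasdermins, by the same edgeR test. An unadjusted p under 0.05 was found for 17 of the 30 oxidative phosphorylation genes, 3 of the 18, 1 of the 23, 2 of the 13, 1 of the 7, 1 of the 4 aquaporins, 0 of the 4 guanylin genes, 3 of the 8 and 3 of the 5. Among all 9418 genes tested, 1466 had such a p. Krt20 stood at 488 ± 73.4 CPM in Abx_14D and 530 ± 104 in GF (log2 difference 0.12 ± 0.16), and the butyrate carrier Slc5a8 at 406 ± 42.8 and 366 ± 73.5 (-0.15 ± 0.15). Car4 was at 97.0 ± 50.9 and 215 ± 70.4 CPM and did not pass (1.21 ± 0.32, edgeR adjusted p = 0.059). At a score of at most 0.3%, Krt20 (1.12, edgeR adjusted p = 0.013) and Car1 (0.84, edgeR adjusted p = 0.028) were higher in GF.

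Cecal cells past the same score value were the closest cells for comparison, 1458 in the same 8 pairs of group and number. Colonic members differed from them in 3029 of 10293 genes tested (29.4%), 2103 higher (20.4%) and 926 lower (9.0%) in the colon. With TMM scaling, which moved the median of all genes from 0.10 to -0.01 on the log2 scale, the split was 1580 and 1448, and with DESeq2 1688 and 1489. The cecal cells had a median score of 0.511%, well above the 0.204% of the colonic members, so a comparison limited to scores of at most 0.3% in both tissues was also made. There 2021 of 9206 genes tested passed, 1234 higher and 787 lower in the colon. Of the 2103 genes above, 1912 were tested there and 1027 passed in the same direction. Of the 926, 825 were tested and 447 passed.

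Salt and water transport differed by gene, with 13 of 31 sodium and chloride genes higher and 7 lower in the colon. Of all genes, 20.4% were higher and 9.0% lower. Atp12a stood at 116 ± 54.0 CPM (SD, n = 8) in the colon and 0.702 ± 0.956 in the cecum (log2 difference 8.08 ± 0.46, edgeR adjusted p = 4.9e-12), and Ano1 at 305 ± 142 against 2.32 ± 1.08 (6.87 ± 0.23). Scnn1a, a subunit of the epithelial sodium channel, stood at 52.3 ± 13.1 against 22.9 ± 4.72 CPM (1.14 ± 0.17), and Fxyd4, a regulator of the sodium pump, at 10.6 ± 5.44 against 0.276 ± 0.307 (4.99 ± 0.46). Kcnn4, a calcium-gated potassium channel, differed by 1.97 ± 0.30 on the log2 scale. Aqp4 stood at 555 ± 228 against 6.57 ± 2.92 CPM (6.32 ± 0.27). Lower in the colon were Clca4a (62.2 ± 26.0 against 866 ± 511 CPM), Clca4b (3.21 ± 3.65 against 18.6 ± 15.9), 2 related secreted proteins of chloride transport whose reads may be shared, and the kinase Sgk2 (29.5 ± 8.85 against 86.4 ± 25.4). Atp12a, Ano1, Aqp4 and Clca4a passed in the same direction at scores of at most 0.3%, as did Scnn1a, Kcnn4 and Clca4b, with Atp12a going from 8.08 to 4.90 on the log2 scale. Fxyd4 was not tested there, and Sgk2 did not (-0.42). Cftr, the chloride channel of cystic fibrosis, did not (780 ± 241 against 526 ± 124 CPM, 0.56 ± 0.18 and, at low scores, 0.0049).

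**Figure D4:**
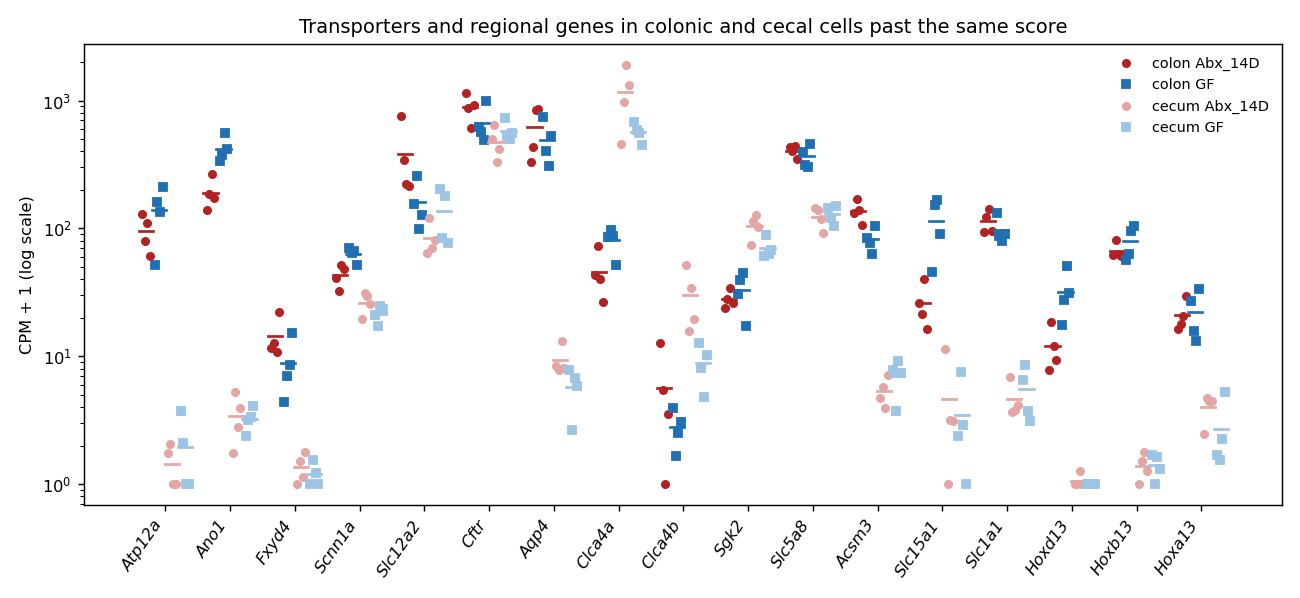
CPM + 1 (log axis) of transporters and regional genes in colonic members (dark) and cecal cells past the same score (pale) of the 4 Abx_14D samples (red circles) and the 4 GF samples (blue squares), with a short line at each group's mean. Aqp4 ranged from 307 to 860 CPM in the colon and from 1.63 to 12.1 in the cecum, and Hoxb13 from 55.7 to 104 and from 0 to 0.771.

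Of 26 regional and lineage transcription factors tested, 9 were higher and 5 lower in the colon, against 20.4% and 9.0% of all genes. Hox genes pattern the gut along its length. Of 13 tested, 3 were higher in the colon, all of the last paralog group. That count is near the 20.4% of all genes that were higher. At low scores 3 Hox genes were higher and 3 lower. Hoxb13 stood at 72.3 ± 18.2 against 0.399 ± 0.302 CPM (log2 difference 7.01 ± 0.26) and Hoxa13 at 20.7 ± 7.43 against 2.36 ± 1.51 (2.97 ± 0.31). Hoxd13 held 181 counts in the colon and 2 in the cecum, a ratio of 229 with a 95% counting interval of 62.4 to 1902. Hoxb6 did not pass (182 ± 32.3 against 215 ± 53.1 CPM). Osr2, a zinc finger factor, was higher in the colon (59.0 ± 11 against 10.5 ± 3.99 CPM), and the retinoic acid receptor Rarb was lower (0.987 ± 1.33 against 15.1 ± 3.32).

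The surface coat and uptake of nutrients differed too. Of 35 membrane mucins and glycan enzymes tested, 17 were higher and 8 lower in the colon, against 20.4% and 9.0% of all genes. B3gnt7, which extends sulfated glycan chains, stood at 187 ± 83.8 against 1.59 ± 0.275 CPM (log2 difference 6.75 ± 0.28), the sialyltransferase St3gal6 at 204 ± 31.1 against 2.36 ± 1.52 and B3galt5 at 136 ± 52.0 against 1.80 ± 1.48. B4galnt2, which makes the Sda antigen, was lower (660 ± 130 against 1345 ± 133 CPM), as were Gal3st2c (30.1 ± 24.4 against 519 ± 103), a sulfotransferase gene with close copies, and Cmah, which makes N-glycolylneuraminic acid (3.74 ± 2.51 against 52.3 ± 39.4). Slc1a1, the glutamate transporter, stood at 104 ± 23.3 against 4.07 ± 1.99 CPM (4.85 ± 0.22) and Slc15a1 at 69.2 ± 60.2 against 3.06 ± 3.58 (4.43 ± 0.51). For short-chain fatty acids, Slc5a8 (386 ± 59.5 against 126 ± 21.6 CPM) and Acsm3 (109 ± 35.9 against 5.22 ± 2.00) were higher, and the monocarboxylate carriers Slc16a1 (330 ± 68.4 against 524 ± 63.4) and Slc16a9 (33.0 ± 11.9 against 63.1 ± 11.05) lower. Tgm3, Thbs4, a thrombospondin, and Robo2, a guidance receptor, were among the largest differences (8.68 ± 0.26, 7.13 ± 0.28 and 7.38 ± 0.34). Susd4 and Adamts18 were among the largest in the other direction (-4.57 ± 0.27 and -3.79 ± 0.36). Wfdc2, a protease inhibitor, stood at 52.4 ± 12.9 against 1.83 ± 1.79 CPM, and among claudins Cldn8 (40.6 ± 12.4 against 4.86 ± 3.46) and Cldn2 (38.9 ± 15.4 against 8.73 ± 5.54) were higher in the colon. Of 41 genes of xenobiotic response, 5 were higher and 18 lower, against 20.4% and 9.0% of all genes. Among the lower ones were Ces2e (74.6 ± 14.1 against 349 ± 90.5 CPM), Aldh1a1 (206 ± 39.6 against 719 ± 120) and Cyp2c55 (550 ± 98.0 against 1863 ± 462). At scores of at most 0.3%, 18 of 33 glycan genes were higher and 5 lower, and 3 of 40 xenobiotic genes were higher and 20 lower. Among all 9206 genes tested there, 1234 were higher and 787 lower. The genes named here passed there in the same direction, apart from Slc15a1, which was not tested. The log2 difference went from -1.76 to -0.76 for Cyp2c55, from -2.22 to -1.42 for Ces2e, from -1.80 to -1.06 for Aldh1a1 and from 2.96 to 1.84 for Cldn8.

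Many genes of terminal maturation did not keep their difference once the score was limited. Of 23 brush border genes, none was higher and 13 were lower in the colon, against 20.4% and 9.0% of all genes. At scores of at most 0.3%, 4 of 22 were higher and 2 lower. These counts lay near those of all 9206 genes tested there, 1234 higher and 787 lower. The list's median log2 difference went from -0.41 to -0.02. Krt20 stood at 509 ± 86.5 against 1007 ± 342 CPM (-0.95 ± 0.16), and the difference was 0.76 at low scores with an edgeR adjusted p of 0.13. Emp1 went from -1.43 to -0.07, Cdhr2, a microvillus protocadherin, from -0.73 to -0.13, Vil1, the actin bundler villin, from -0.60 to -0.20, and Slc10a2 from -1.75 to -0.75, none past the threshold at low scores. Car1 (2147 ± 504 against 9117 ± 3351 CPM), Slc37a2 (176 ± 69.9 against 1457 ± 657), Apob (170 ± 64.3 against 789 ± 193) and Espn, which bundles actin (64.2 ± 11.6 against 207 ± 47.3), passed in both.

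**Figure D5:**
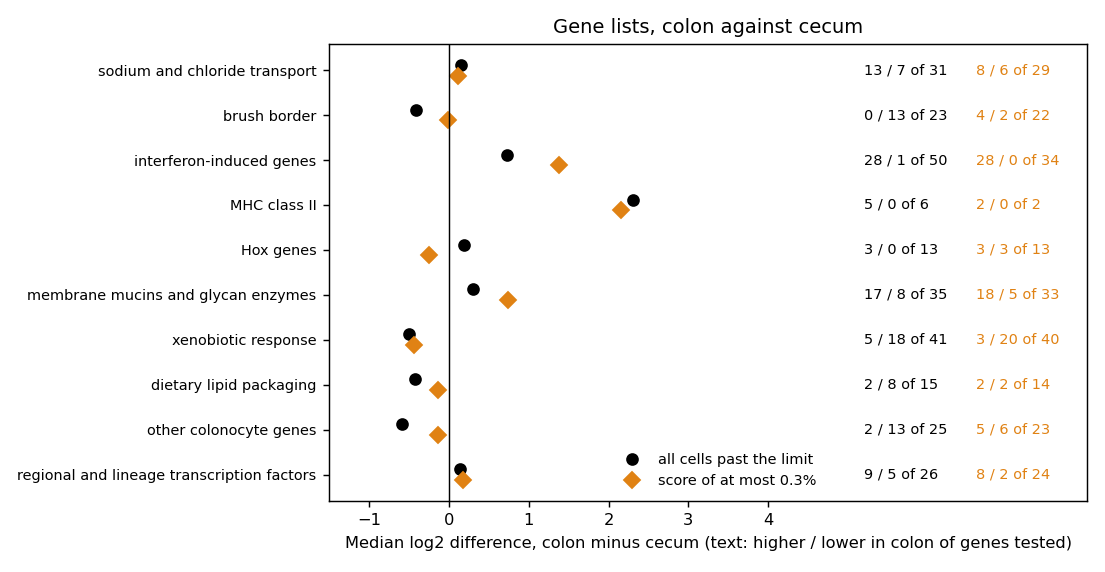
Median log2 difference between colon and cecum of 10 gene lists for all cells past the score limit (black circles) and for cells with scores of at most 0.3% (orange diamonds), with the numbers of genes higher and lower in the colon of those tested printed at the right. The brush border list moved from -0.41 to -0.02, and glycan enzymes from 0.30 to 0.74.

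Interferon-induced genes were also higher in the colon than in the cecum, 28 of 50 with 1 lower, and 28 of 34 with none lower at scores of at most 0.3%. Among all genes, 20.4% were higher in the main comparison and 1234 of 9206 at low scores. Of 6 MHC class II genes 5 were higher and none lower, and at low scores 2 of 2 tested were higher. Cd74 stood at 176 ± 104 CPM (SD, n = 4) in Abx_14D colon and 27.7 ± 8.49 in Abx_14D cecum, and at 16.9 ± 23.1 and 2.67 ± 0.914 in GF. The GF-to-Abx_14D difference itself was compared between the tissues over 10293 genes, and 91 (0.884%) passed, 44 higher and 47 lower. With TMM scaling 130 were higher and 55 lower, and leaving out 1 library gave between 9 (Cecum Abx_14D 3) and 203 genes (Cecum Abx_14D 1). Of the 50 interferon genes, 1 passed (Trim30d), and Isg15 did not (log2 difference of differences 2.01 ± 1.14), with 41.1 ± 29.1 and 1.83 ± 1.43 CPM in the colon and 45.7 ± 20.5 and 0.761 ± 0.498 in the cecum. Homer2, a synaptic scaffold gene, stood at 59.3 ± 16.6 and 76.1 ± 15.8 CPM in the colon and at 27.2 ± 15.8 and 5.90 ± 2.67 in the cecum (2.88 ± 0.50, edgeR adjusted p = 0.012). Ntn4, a netrin, went the other way (24.9 ± 5.17 and 18.0 ± 6.52 against 10.6 ± 3.60 and 38.1 ± 9.99, -2.38 ± 0.38, edgeR adjusted p = 0.011). At scores of at most 0.3% no gene passed and 703 had an unadjusted p under 0.05, and without cells above 60000 transcripts 6 passed, 4 of them among the 44 and 1 among the 47.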

How the data were processed

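Sorted colon and cecal epithelium was profiled by split-pool single-cell RNA sequencing (Parse Evercode) in 8 sublibraries. The deposited matrix holds counts of transcripts per gene and cell, and the deposited cell table names the loaded sample of each barcode. Build mm39 and Seurat are named by the submitters' processing notes, and no source used here gives the aligner or the counter. The members and gene lists were chosen with earlier results of these data known.

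Cells of at least 500 transcripts were kept, and no doublet caller was run. Counts of members were summed per numbered sample (n = 4 per group and tissue) and tested with edgeR 4.0.16 (quasi-likelihood, library-size scaling, low-count filter, Benjamini-Hochberg adjustment over all genes tested, threshold 0.05) in R 4.3.3. The difference between members and other colon cells was fitted with the sample as a block. Named genes were, at an adjusted p under 0.05 and at least 20 CPM in the higher group, the 15 largest changes each way for GF against Abx_14D and the 8 largest each way elsewhere, with members of the 31 lists that passed or reached 50 CPM, the genes of the rule and the 25 genes of highest ratio to other cells. For the difference between tissues, Homer2, Grin3a and Ntn4 among the named genes also passed without the deepest cells. Ratios on 1 to 3 counts carry 95% intervals that cover counting error only.

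Alternatives were TMM scaling, DESeq2 1.42.0, limma 3.58.1 on mean log2 CPM per cell, no low-count filter, other cell limits, sublibraries 1 to 4 or 5 to 8 alone, the replicate block and each sample left out. The limits of 60000 transcripts, a score of 0.3% and 5 counts of the rule genes were chosen after seeing the data. The procedure was tested on simulated data with known changes. Of changes of 1 on the log2 scale, it recovered 65.3% for GF against Abx_14D and 82.8% for colon against cecum. It recovered 48% for members against other colon cells and 26% for the difference between tissues. For changes of 2, these shares were 97.9%, 99%, 81.8% and 79.6%. Genes that did not pass the interaction tests may therefore still differ. RefSeq promoter windows are of GRCm38.p6, another build than the files', and were matched by gene symbol only. Some genes that this rule names are not reported here.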

Additional observations from a re-analysis of the deposited data

Results flagged for a closer look

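Of 340 groups of 4 samples checked, 17 held a sample far from the other 3, and chance gives about 1 in 20. Among GF members these samples were at 260.2 CPM for the summed cycling markers, 128.1 for Mki67, 105.7 for Rnf213, 368.6 for Eps8, 502.4 for Trpm6, 185.2 for Ptprr, 286.7 for Thbs4, 327.3 for Cyp2c55 and 99.72 for Homer2. Among Abx_14D members they were at 198.3 CPM for Irf7, 174.9 for Ly6a, 22.17 for Slc30a10, 80.66 for Hoxb13, 46.7 for Cldn8 and 11.52 for Slfn9. In cecal GF cells they were at 738.6 CPM for Gal3st2c and 48.71 for Cmah.

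The GF-to-Abx_14D difference differed between members and the other colon cells, by an edgeR interaction test, for several genes, of which Bst2, Herc6, Rigi, Rnf213 and Ifi27l2b belong to the interferon list. On the log2 scale the interaction was 2.78 for Sycn, 2.30 for Gcnt1, 1.79 for Fbxo32, a ubiquitin ligase of muscle wasting, 1.77 for Tgm3, 1.76 for Selenop, 1.57 for Ptprr and 1.53 for Plekhg6. In the other direction it was -3.26 for Ifitm3, -3.22 for Slfn4, -2.72 for Bst2, -2.64 for Racgap1, -2.53 for Tenm4, -2.45 for Ror2, -2.39 for Knstrn, -2.07 for Ly6e, -1.75 for Herc6, -1.15 for Rigi, -0.83 for Rnf213 and -0.78 for Ifi27l2b. Racgap1 and Knstrn act in cell division. Summed cycling markers were lower on average in GF members but overlapped between groups, and their part in these interactions was not tested.

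Between colon and cecum the same kind of test gave 4.13 for Anxa8, 2.88 for Homer2, 2.46 for Grin3a, 2.28 for St3gal4, 2.09 for Pfkfb4, 1.84 for Plekhg6 and 1.36 for Mxd1 on the log2 scale. It gave -4.27 for Ifitm3, -2.79 for Slfn9 and -2.38 for Ntn4.

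Colon cells of Abx_4D, which entered no comparison, also carried these transcripts. The 83 cells past the same score summed to 5071 CPM for the interferon genes and 1108 CPM for MHC class II.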

How the results depend on the processing

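Counts of genes passing the edgeR test depended on the cells and tools. For GF against Abx_14D in members, 241 genes passed (101 higher, 140 lower), with 172 higher and 161 lower in DESeq2, 98 (15 and 83) with limma, 712 with no low-count filter, 154 (31 and 123) in the top 16% of cells, 155 in sublibraries 1 to 4, 106 in sublibraries 5 to 8, 147 without cells above 60000 transcripts and 104 at a score of at most 0.3%. Leaving out 1 sample gave 124 (Abx_14D 1) to 452 (GF 4). For members against other colon cells, 161 passed, and 7 with limma, 547 with no filter, 55 in the top 4%, 23 in the top 16%, 92 with no goblet limit, 23 and 7 in the sublibrary sets, 36 without the deepest cells, 83 at low scores and 57 (without GF 3) to 187 (without Abx_14D 3) with 1 sample left out. For colon against cecum, 3029 passed, with 1873 in sublibraries 5 to 8 and 2021 at low scores. Leaving out 1 sample there gave 2661 (without Cecum Abx_14D 3) to 3216 (without Cecum GF 1). For the difference between tissues, 91 passed, and 185 with TMM, 296 with DESeq2, 4 with limma, 468 with no filter, 11 in the top 4%, 0 in the top 16% (725 at an unadjusted p under 0.05), 18 and 1 in the sublibrary sets, 6 without the deepest cells, 0 at low scores (703) and 9 (without Cecum Abx_14D 3) to 203 (without Cecum Abx_14D 1) with 1 sample left out. The cause of these shifts was not tested, beyond the fewer cells or other genes each setting holds.

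Shared sample numbers correlated at 0, 0.272, 0.226 and 0.146 between GF and Abx_14D members, and shared numbers of colon and cecum at 0.246, 0.295, 0.309 and 0.194 in Abx_14D and 0.379, 0.094, 0.121 and 0.41 in GF. Each of the Abx_14D pairs of colon and cecum, and GF 1 and 4, were the best match of their number. Between Abx_14D and GF members, numbers 2, 3 and 4 were also the best match. The labels do not say which samples share animals, so the numbers were not taken as pairs in the main fits. With the replicate block 317 genes passed for GF against Abx_14D, 2915 for colon against cecum and 152 for the difference between tissues. With no replicate block 23 passed for members against other cells.

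Among named genes past the threshold in either setting, the following changed direction. With limma on means per cell, Gcnt1 (-0.20), Cacna1e (-0.05) and Prkch (-0.037) turned for GF against Abx_14D, as did Car1 (0.84) at scores of at most 0.3%. Racgap1 turned in the top 4% (0.11) against the other cells. Between colon and cecum, Slc9a2 (0.01), Car4 (-0.24), Cdhr5 (0.016) and Krt20 (0.76) turned at low scores. Genes that passed in neither setting also changed sign, among them Krt20 (-0.40 in sublibraries 5 to 8), Slc5a8, Hoxb13, Vil1, Aqp4 and Emp1 for GF against Abx_14D, Cd74 against the other cells and Hoxb6 between tissues. The 587 members and their shallow sample GF 4 limit what low genes can show.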

Other observations

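Colon cells past the score limit in Abx_4D numbered 35, 22, 13 and 13 in samples 1 to 4. Their interferon genes summed to 6922, 2491, 4102 and 6414 CPM and MHC class II to 1302, 789, 278 and 1538 CPM. The meaning of 4D is not given in the labels, and no test was made. In control colon 16 cells past the limit held 14149 transcripts in all, among them 40 interferon-list counts and 1 MHC class II count.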
